A study of Mus musculus with 2 samples.

Results

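The genes described here are 9 core components of the Hedgehog signalling pathway: the ligands Shh, Ihh and Dhh, the receptor components Ptch1 and Smo, the Gli transcription factors Gli1, Gli2 and Gli3, and their regulator Sufu. They were taken by name from the 21779 protein-coding genes of the RefSeq annotation of GRCm38, and Sap130 peak summits were assigned to a gene when they lay inside it or within 10000 bp of either of its boundaries. By this rule 20 of the 14886 summits in the list belonged to a Hedgehog gene. The summits came from chromatin immunoprecipitation and sequencing (ChIP-seq) of C57BL/6 mouse embryonic hearts at E12.5, with 1 library pulled down with 2 µg of a rabbit anti-Sap130 antibody and 1 input library without antibody. The labels give no genotype, treatment or number of pooled hearts. The question stated for the series is which genes Sap130 binds in the embryonic heart.

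Sap130 belongs to the Sin3 corepressor complex, which recruits histone deacetylases to chromatin. In the Hedgehog pathway, a secreted ligand binds Ptch1 and relieves its inhibition of Smo, which then enters the primary cilium. There Smo signalling counteracts Sufu, which otherwise holds Gli proteins in check and favours the processing of Gli3 into a repressor. Gli2 acts mainly as an activator, and Gli1 is both an activator and a transcriptional target of the pathway. In heart development, Shh from the pharyngeal and foregut endoderm acts on progenitors of the second heart field and is needed for septation of the outflow tract and the atria.

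Each summit carries a score deposited by the authors, the −log10 of a p-value or a q-value against input, so that a higher score means a more certain peak and not a fold enrichment. There was no replicate, read depth is unknown, and no statistical test was made of any difference given here. Over the 14881 summits on nuclear chromosomes the lowest score was 2.1 and the highest 428. The median was 33.3, between a lower quartile of 13.9 and an upper quartile of 65.2. A summit records where the antibody target was found and says nothing about whether a gene was expressed. ChIP of hearts also cannot tell which cells carried the protein.

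For 7 of the 9 genes (Ihh, Dhh, Ptch1, Smo, Gli2, Gli3 and Sufu) RefSeq promoter sequences of GRCm38.p6 were at hand, each covering 250 bases before to 50 after the gene start. A promoter for Shh or Gli1 was not used here. The 4 promoters printed next show the range of start regions among the genes: Ptch1 and Sufu had the highest scores near their own starts, the Gli2 window itself holds a summit, and Ihh had no summit near its start. They are written 5′ to 3′ on the gene's strand. Capitals mark every match to 2 motifs, GGGCGG (the GC box bound by Sp factors, also read as CCGCCC on the other strand) and CCAAT (the CCAAT box, also read as ATTGG).
Ptch1, minus strand, chr13:63565686-63565985: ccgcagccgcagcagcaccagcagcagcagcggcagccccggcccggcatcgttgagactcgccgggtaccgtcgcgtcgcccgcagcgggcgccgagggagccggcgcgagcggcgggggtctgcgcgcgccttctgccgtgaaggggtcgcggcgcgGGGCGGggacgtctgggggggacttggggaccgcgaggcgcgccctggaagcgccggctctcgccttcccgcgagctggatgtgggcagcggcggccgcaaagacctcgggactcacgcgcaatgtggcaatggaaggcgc
Sufu, plus strand, chr19:46396646-46396945: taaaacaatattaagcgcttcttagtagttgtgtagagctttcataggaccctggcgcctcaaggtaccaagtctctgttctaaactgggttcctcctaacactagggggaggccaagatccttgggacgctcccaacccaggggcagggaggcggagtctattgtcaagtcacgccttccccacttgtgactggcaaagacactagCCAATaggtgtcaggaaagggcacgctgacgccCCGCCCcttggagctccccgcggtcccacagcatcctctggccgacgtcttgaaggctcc
Gli2, minus strand, chr1:119053570-119053869: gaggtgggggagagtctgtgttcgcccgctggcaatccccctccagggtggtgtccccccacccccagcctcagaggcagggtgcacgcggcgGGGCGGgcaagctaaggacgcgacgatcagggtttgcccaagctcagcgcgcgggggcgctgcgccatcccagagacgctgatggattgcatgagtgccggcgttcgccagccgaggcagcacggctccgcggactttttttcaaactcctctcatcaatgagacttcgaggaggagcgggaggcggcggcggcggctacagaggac
Ihh, minus strand, chr1:74951623-74951922: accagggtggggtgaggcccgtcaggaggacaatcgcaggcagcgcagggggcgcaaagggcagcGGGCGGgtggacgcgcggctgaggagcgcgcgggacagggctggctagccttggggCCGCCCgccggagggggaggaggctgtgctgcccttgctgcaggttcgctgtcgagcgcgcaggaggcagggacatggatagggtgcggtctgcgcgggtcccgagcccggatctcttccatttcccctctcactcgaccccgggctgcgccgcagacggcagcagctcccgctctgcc

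All 9 Hedgehog genes had a Sap130 summit in reach, against 60.1% of all protein-coding genes. That count included summits that lay at the start of a neighbouring gene. A summit inside the gene itself was found for 8 of 9, all but Ihh, against 50.9% of genes. A summit within 1000 bp of a boundary was found for 6 of 9 (Dhh, Ptch1, Smo, Gli2, Gli3 and Sufu), against 48.4%. For Dhh that summit lay 432 bp outside the gene and inside its neighbour Rhebl1. Of the 7 genes with a listed start, 5 (Ptch1, Smo, Gli2, Gli3 and Sufu) had a summit within 1000 bp of it, against 52.2% of the 17492 protein-coding genes with a listed start. Where a gene had several listed starts, a summit at any of them counted. Long genes have more room for a summit, and the members ran from 6358 bp (Ihh) to 266304 bp (Gli3). Whether 9 genes differ from the rest was not tested.

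Scores differed widely among the Hedgehog genes. The highest score in reach was 91.2 at Dhh, 87.7 at Sufu, 77.5 at Ptch1 and 73.7 at Smo, each above the upper quartile of all summits. Gli3 followed with 50.3. Gli2 had 16.1, and Shh, Gli1 and Ihh had 9.995, 9.07 and 8.33, the last 3 being under the lower quartile of all summits. The median over the 9 genes was 50.3, against 54.7 over the 13080 protein-coding genes with a summit in reach, whose quartiles were 27.4 and 85.6. With summits inside the gene only, the medians were 32.4 over 8 Hedgehog genes and 46.2 over all genes with such a summit, and with each summit given to its nearest coding gene they were 32.4 and 45.8. A summit at or above the median score was in reach of 5 of 9 genes (Dhh, Ptch1, Smo, Gli3 and Sufu), against 41.9% of protein-coding genes. For Ihh, Dhh and Smo, the highest score belonged to a summit outside the gene and at a neighbour, as described for each below.

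**Figure D1:**
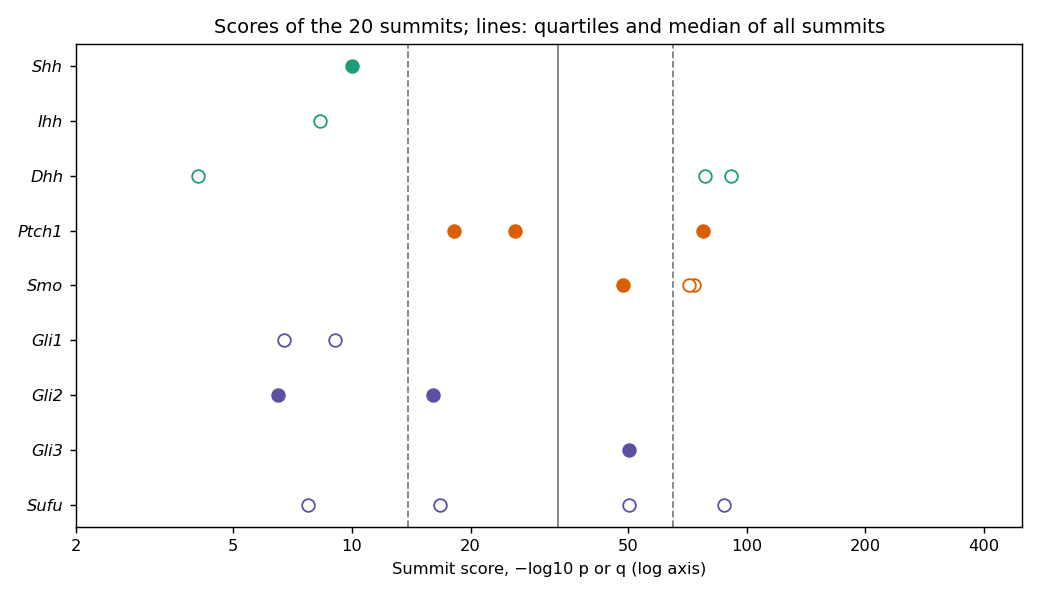
Score of each of the 20 summits (x axis, −log10 p or q, log scale) by gene (y axis), coloured by role: ligands, receptors, and Gli factors with Sufu. Filled points are summits in reach of no other protein-coding gene, open points are shared, and the lines give the quartiles (dashed, 13.9 and 65.2) and the median (solid, 33.3) of all summits. Shh, Ihh and Gli1 have only points left of the lower quartile.

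Of the 20 summits, 12 lay inside a Hedgehog gene and 8 outside. Another protein-coding gene was also in reach of 12 of them, so these cannot be given to the Hedgehog gene alone, while across the whole list 41.2% of the summits in reach of a coding gene were shared in this way. Shh, Ptch1, Smo, Gli2 and Gli3, 5 of 9 genes, had a summit in reach of no other coding gene, against 28.4% of protein-coding genes. Scores of the 20 summits had a median of 22.0, with 9 at or above the median of the list and 7 under its lower quartile. Dhh, Ptch1, Smo and Sufu, 4 of 9 genes, had 3 or more summits in reach, against 10.7% of protein-coding genes. Only Ptch1 had 3 inside the gene itself, while Dhh and Smo had 1 each and Sufu had 2. The other summits of Dhh, Smo and Sufu lay outside the gene and were shared with a neighbour. Those inside Dhh and Sufu were shared as well, while the summit inside Smo was not.

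**Figure D2:**
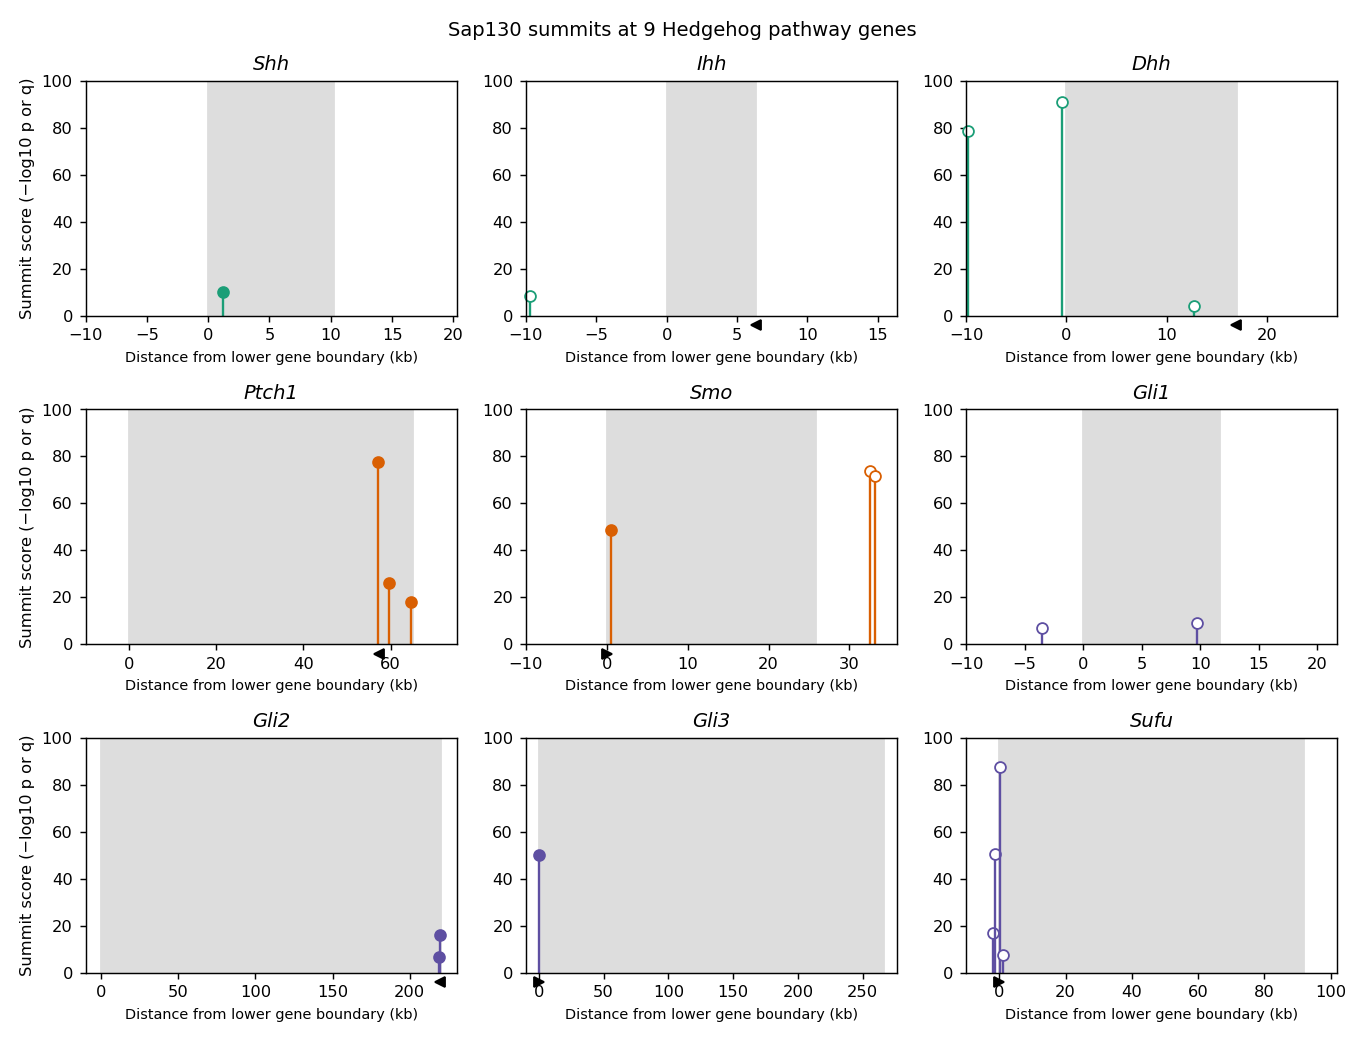
Summits along each Hedgehog gene, with the distance from the lower-numbered gene boundary in kb (x axis) and the score (y axis, −log10 p or q). Grey marks the gene, each panel extends 10 kb to either side, black arrowheads mark the listed start and direction where one was listed, filled points are summits in reach of no other coding gene and open points are shared. The tall stems of Ptch1, Gli3 and Sufu stand at the arrowhead, and those of Dhh and the paired ones of Smo stand outside the gene.

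The ligand genes had a low-scoring summit inside them or none. Shh encodes the ligand that reaches the heart field from endoderm (chromosome 5, 28456840 to 28467101). It had 1 summit, at 28458063, 1223 bp inside its lower-numbered boundary, with a score of 9.995, higher than or equal to 16.9% of all summits. No other coding gene had that summit in reach, the nearest coding gene, Rbm33, being 37596 bp from Shh. The nearest listed start of any gene, that of 9530036O11Rik, was 8921 bp from the summit. The next summit beyond the reach of Shh was 139474 bp from the gene.

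Ihh, the ligand best known from cartilage and gut (chromosome 1, 74945315 to 74951672), had no summit inside it. Its only summit in reach, of score 8.33, was at 74935598, which is 9717 bp beyond the 3′ end of the gene. That position was 28 bp inside the boundary of Cfap65, a cilia and flagella associated protein gene, so the summit was close to an end of the neighbour and far from Ihh. It was also among the summits nearest to the limit of the rule: a summit of Dhh at 9829 bp was the farthest one still counted, and the nearest ones left out were 11576 bp from Sufu (score 39.2), 11655 bp from Dhh (17.6) and 17865 bp from Gli1 (62.3).

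Dhh, the ligand known from Schwann cells, testis and endothelium (chromosome 15, 98881615 to 98898562), had 3 summits in reach. The highest, 91.2 at 98881183, was 432 bp beyond the 3′ end of Dhh. It lay 314 bp inside Rhebl1, a Rheb-like small GTPase gene whose boundary is 118 bp from Dhh. A score of 78.6 was at 98871786, which is 9829 bp from Dhh and 581 bp before the listed start of Kmt2d, a histone H3K4 methyltransferase gene. Inside Dhh itself the single summit, at 98894332, was 4208 bp after the start and had a score of 4.07, higher than or equal to only 1.53% of all summits, and Lmbr1l, 9586 bp from it, was also in reach. The high score credited to Dhh therefore sat in a neighbour.

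Both receptor genes had a summit at their own start, with a high score at Ptch1 and a score near the median at Smo. Ptch1, the ligand-binding receptor that restrains Smo (chromosome 13, 63508328 to 63573460), had 3 summits, all inside the gene and with no other coding gene in reach. The highest, 77.5 at 63565510, was 225 bp after the listed start, whose promoter is printed above. Of the other two, 1 with a score of 26.0 was at 63567947, 2212 bp before that start, and 1 with 18.1 was at 63572914, 7179 bp before it and 546 bp inside the 5′ boundary of the annotated gene. The annotated gene thus reaches upstream of the listed start, and all 3 summits fell within 7404 bp at its 5′ end. Among the 9128 genes with a summit within 1000 bp of a listed start, the highest score within that distance was at or below that of Ptch1 for 73.5% of genes.

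Smo, the transmembrane signal transducer (chromosome 6, 29735497 to 29761366), had 1 summit inside it, of score 48.7 at 29736044, 547 bp after the start. This score stood at percentile 48.7 of genes with a summit near a listed start, close to their median of 50.1. Scores of 73.7 and 71.7 were found at 29767999 and 29768693, 694 bp apart and 6633 and 7327 bp beyond the 3′ end of Smo. These flank the start of Ahcyl2, a gene related to adenosylhomocysteinase, 444 bp before and 250 bp after it. The Smo start thus had a lower score than both summits of the neighbour.

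The 3 Gli genes had medium to low scores, highest at Gli3. Gli3, the main repressor of the pathway (chromosome 13, 15463723 to 15730026), had 1 summit, 50.3 at 15464072, which is 349 bp after the start. It stood at percentile 50.2 of genes with a summit near a listed start. No other summit lay anywhere else in this gene of 266304 bp, and the next one beyond its reach was 833388 bp away. That distance was at or above the same distance of 99.2% of the 13080 genes with a summit, whose median was 32652 bp.

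Gli2, the main activator (chromosome 1, 118834061 to 119054405), had 2 summits, 878 bp apart on either side of the listed start. The one of score 16.1, at 119053817, was 198 bp before the start and is base 53 of the window printed above. The other, of score 6.51 at 119052939, was 680 bp after the start. Neither was in reach of another coding gene, and the next summit beyond reach was 367377 bp from the gene, a distance at percentile 96.8. With 16.1 Gli2 stood at percentile 14.9 of genes with a summit near a listed start, below Gli3 at 50.2.

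Gli1, the pathway's own target gene and an amplifier of its signal (chromosome 10, 127329882 to 127341579), had 2 low scores. A summit of 9.07 was at 127339631, 1948 bp inside the upper-numbered boundary and 9684 bp from its neighbour Arhgap9 and 9771 bp from Inhbe, an inhibin subunit gene. A summit of 6.74 was at 127326406, which is 3476 bp outside Gli1 and inside Arhgap9. Both were under the lower quartile of scores, at percentiles 14.5 and 8.21 of all summits.

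Sufu, the cytoplasmic inhibitor of Gli proteins (chromosome 19, 46396896 to 46488804), had 4 summits within 2947 bp, the most of the 9 genes. The highest, 87.7 at 46397120, was 224 bp after the start, and 7.73 was at 46397923, which is 1027 bp after it. On the other side, 50.4 at 46395567 and 16.8 at 46394976 lay 1329 and 1920 bp before the Sufu start. These were 174 and 765 bp inside Actr1a, a dynactin subunit gene that is read in the opposite direction with its start 1155 bp from Sufu. The pair of genes thus had a summit just after each start, and all 4 summits were in reach of both genes. Within 1000 bp of its own start, Sufu stood at percentile 79.9 of genes with such a summit, the highest of the 5 Hedgehog genes that had one.

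Distances of the main summits from the start varied among the 5 Hedgehog genes that had a summit there. Over the 10159 summits within 1000 bp of a listed coding start, the median position was 179 bp after the start, with quartiles of 96.0 and 248.5 bp after it, and 81.6% lay after the start. The main summits of Sufu and Ptch1, at 224 and 225 bp, fell between these quartiles. Those of Gli3 and Smo, at 349 and 547 bp, lay beyond the upper quartile, and the main one of Gli2 lay before the start. By definition many summits of the whole list also lie outside its quartiles. Whether the positions at Hedgehog genes differ from the rest was not tested.

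**Figure D3:**
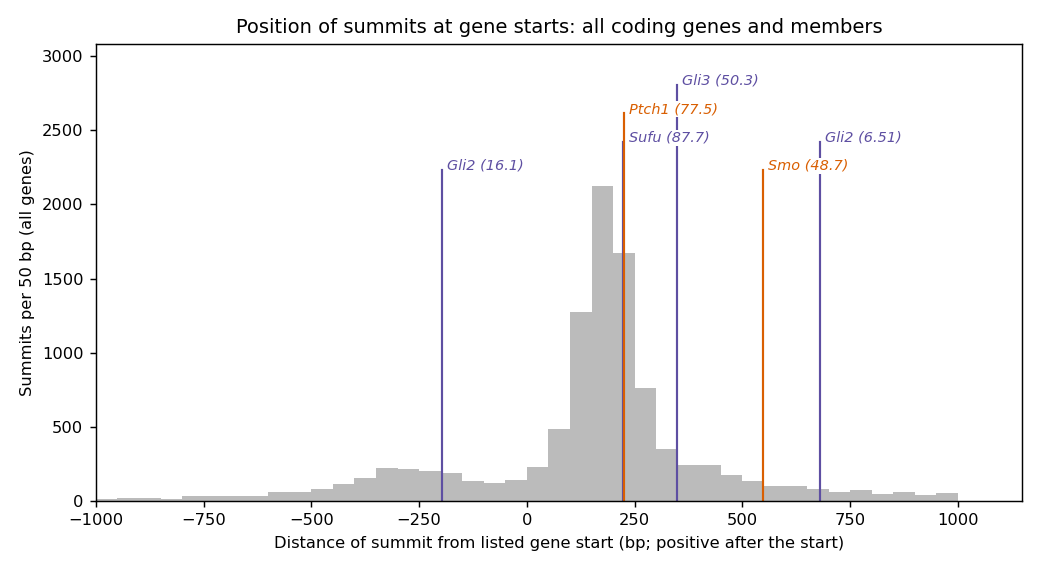
Number of summits per 50 bp by their distance from the nearest listed start of a protein-coding gene (grey, 10159 summits, positive after the start). Coloured lines mark the summits of Hedgehog genes at their own starts with the score in brackets. Ptch1 and Sufu stand in the main peak, and Gli2 has 1 summit on each side of the start.

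Promoter composition was read from the 300-base windows. CpG counts (CG dinucleotides) were 47 at Ptch1, 39 at Gli3, 30 at Ihh, 28 at Gli2, 17 at Smo and 12 at both Dhh and Sufu, against a median of 13 over 21263 promoters of protein-coding genes. Across the genes with a listed start, split into 4 groups of similar size by CpG count, a summit within 1000 bp of a start was found for 1.37%, 37.2%, 84.8% and 93.0% of genes, from the fewest CpG to the most. A gene with several listed starts was placed by its highest CpG count, and a summit at any of its starts counted. Ihh was in the top group, of 26 to 67 CpG, yet had no summit there, unlike Ptch1, Gli3 and Gli2 in the same group. Sufu had the highest score at a start with 12 CpG, as many as Dhh, which had no summit near its start. Only 5 of these 7 genes had a score at their own start, and how CpG count relates to score was not tested.

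**Figure D4:**
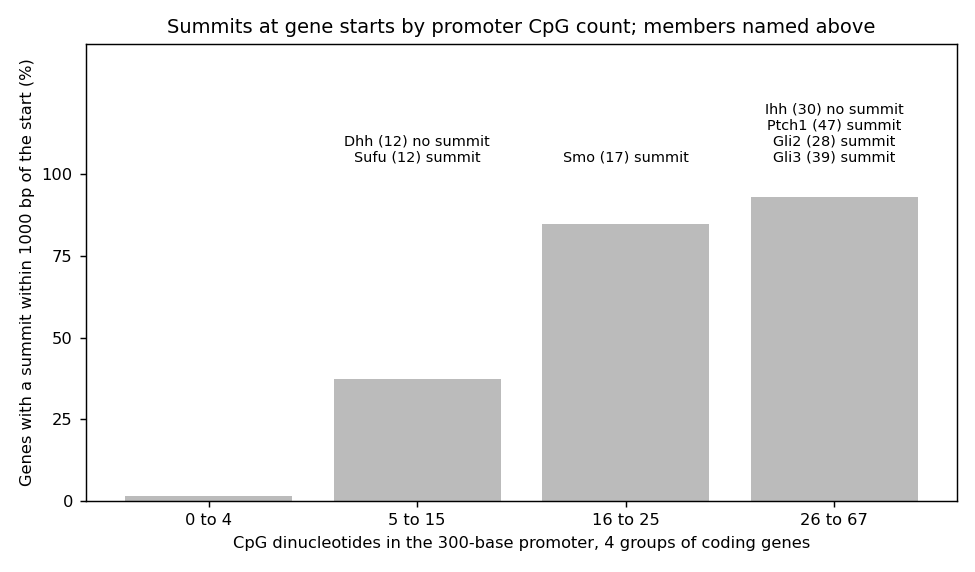
Share of protein-coding genes with a Sap130 summit within 1000 bp of a listed start (y axis, %) in 4 groups by CpG count of the 300-base promoter (x axis). For genes with several promoters the highest count was used. Names above each bar are the Hedgehog genes of that group with their CpG count and whether a summit was within 1000 bp of their start. Ihh, with 30 CpG, has none in a group where 93.0% of genes have one.

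The search covered 6 motifs on both strands, and a match is a description of letters only. GGGCGG was in 6 of the 7 promoters, all but Smo, and in 46.2% of all 21263. Dhh had 4 matches, Ihh and Gli3 had 2 each, and Ptch1, Gli2 and Sufu had 1 each. CCAAT was in Sufu alone, at bases 208 to 212 of the window, and in 38.2% of all promoters. The Gli consensus GACCACCCA (TGGGTGGTC on the other strand) was in none of the 7 and in 0.179% of all promoters. The E-box CACGTG was in none of the 7 and in 7.84% of all. The same held for the ETS core CCGGAA, with 18.7% of all, and for the TATA box TATAAA, with 12.6%. No pair of these motifs shares bases in the 7 windows. The share of G and C bases was 56.3% at Sufu and from 61.7% (Dhh) to 76.3% (Ptch1) at the others. Its median over all promoters was 56.3%. How this share bears on the motif counts was not tested.

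The other genes of the pathway were grouped by role into 5 lists with 88 genes in all, of which 80 had a summit in reach, with a median highest score of 43.1 against the 54.7 of all coding genes with a summit. Counts of genes with any summit in reach can be read against the 60.1% of all coding genes, and counts of genes that reached the median score of all summits against the 41.9%. Ligand processing and release had summits at 6 of 6 genes, with a median highest score of 22.6, and 2 of 6 reached the median score (against 41.9%). Its highest scores were 76.2 and 60.1 for Scube3 and Scube1, secreted proteins that help release ligand, both from summits outside the gene and shared with a neighbour. Disp1, the transporter that releases lipid-modified ligand, had 23.7 from a summit 177 bp inside the gene.

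Other surface receptors and ligand-binding proteins had summits at 6 of 8 genes, with a median of 25.9. Of the 8 genes, 2 reached the median score (against 41.9% of all coding genes). The co-receptor genes Cdon and Gas1 had 57.1 and 39.9, from summits 206 and 774 bp inside. The glypican gene Gpc6 had 26.0, from a summit 1181 bp inside. Hhip, which encodes a ligand-trapping inhibitor, and Gpc5, another glypican gene, had none, with the nearest summit 254370 and 49866 bp away.

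All 21 genes of the cytoplasmic transducers, kinases and Gli turnover list had a summit, with a median of 56.3, and 16 of them reached the median score (41.9% of all coding genes did). The highest were 107 for Gsk3b and 107 for Prkaca, kinases that phosphorylate Gli proteins, and 104 for Prkar1a, a regulatory subunit of protein kinase A. These kinases also serve many other pathways. The Prkaca summit was shared with its neighbour Asf1b. Of 30 genes for cilium assembly and transport, 28 had a summit, with a median of 80.7, and 21 of 30 reached the median score (against 41.9%). The highest were 155 for Ift74 and 143 for Ift80, of intraflagellar transport, and 136 for Inpp5e, a ciliary phosphoinositide phosphatase, all from summits outside the gene and shared with a neighbour. Cc2d2a, of the ciliary transition zone, and Wdr19, of intraflagellar transport, had none, with the nearest summit 40920 and 68338 bp away.

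Genes described as Hedgehog targets had summits at 19 of 24, with a median of 28.6, and 6 of 24 reached the median score (against 41.9%). The highest were 94.4 for Ccne1, cyclin E1, 58.6 for Vegfa, an angiogenic growth factor, and 48.0 for Bcl2, an inhibitor of cell death. The Bcl2 summit was shared with its neighbour Kdsr. Members without a summit in reach included Foxf2 and Grem1, with the nearest 67482 and 89911 bp away, and again Hhip. Among markers of foregut and lung endoderm, the tissue next to the heart that makes Shh, 4 of 10 had a summit in reach. These were Sftpc with 64.8, from a summit shared with neighbours and 916 bp outside, Sox2 with 10.4, and Sox17 and 1 more with lower scores, while Cdh1, Epcam and Foxa1 had none. The median of these 4 was 7.86. Cardiomyocyte markers had 5 of 10, led by Myl4 with 57.2, from a summit shared with Cdc27. Next were Tnni3 with 8.88, shared with Tnnt1 and Dnaaf3, and Ttn with 8.22, while Actc1, Myh6 and Myh7 had none. Both shares were below the 60.1% of all coding genes, but each list holds only 10 genes and the difference was not tested. Which cells carried the summits at Hedgehog genes was not tested either.

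**Figure D5:**
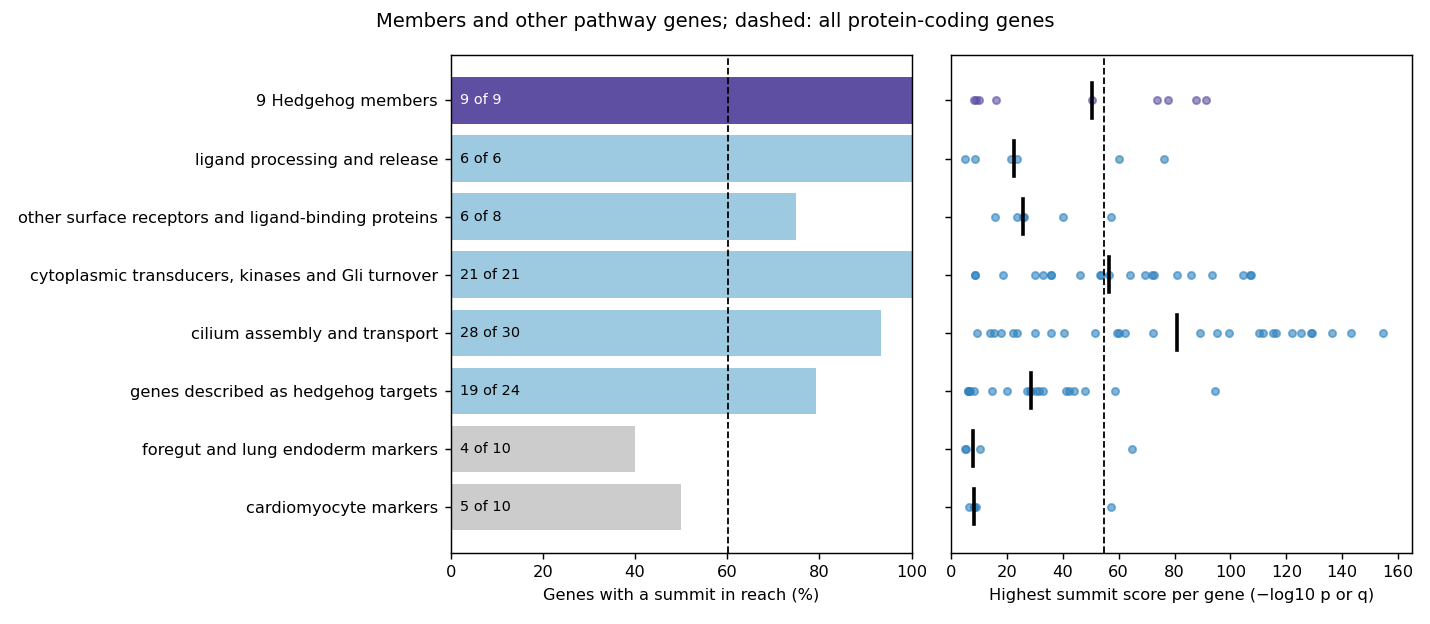
Left, share of genes with a summit in reach (x axis, %) for the 9 Hedgehog genes, 5 lists of other pathway genes and 2 lists of cell type markers, with counts written in the bars and the share of all protein-coding genes (60.1%) as a dashed line. Right, the highest score of each gene with a summit (points) and the list's median (black bar), with the median of all such genes (54.7) dashed; the cilium list has the highest median, 80.7.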

How the data were processed

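Sap130 ChIP and input DNA from E12.5 mouse hearts were compared by the authors, and 1 list of peaks resulted. The submitters' processing notes name Bowtie 1.1.2, MACS2 2.1.0.20140616 and build GRCm38 (mm10). How they were run, and with which threshold, is not given in the sources used here. Each deposited entry is 1 base long, taken as a summit. Its score, as deposited by the authors, was read as a −log10 value, either of a p-value or of a q-value, and the file does not say which. Because such a score rises with sequencing depth, it served only to rank and describe summits of this list.

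Summits were placed on genes of RefSeq GRCm38.p6 on chromosomes 1 to 19, X and Y, leaving out the 5 mitochondrial summits and any gene that starts within 3 Mb of the chromosome's first base, Y excepted. Gene starts and strands came from a RefSeq promoter table of the same build. It covers 17492 of 21779 protein-coding genes. Exons, introns and UTRs were not used. A percentile is the share of values at or below the one given. The distance rule was checked on summits placed beyond the upper-numbered boundary of genes, within or past the reach. That check does not show which gene a summit belongs to. The members and lists were chosen with earlier results of these data known, and 1 pathway gene is not reported here. The text names all members, the genes sharing their summits, and from each list the 3 highest scores and up to 3 genes without a summit. Python 3.11.15, numpy 2.4.6, pandas 2.3.3 and matplotlib 3.10.9 were used.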

Additional observations from a re-analysis of the deposited data

How the results depend on the processing

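All 9 Hedgehog genes kept a summit with a reach of 50000 bp (71.4% of all coding genes had one) and with summits within 500 bp merged (60.0%). Merging changed none of the members' values. The number of genes was 8 with summits inside the gene only (50.9% of all genes), with a reach of 1000 bp (55.0%) and with each summit given to its nearest coding gene (51.0%), Ihh being the gene lost in each case. It was 6 within 1000 bp of a boundary (48.4%), 5 with summits in reach of no other coding gene (28.4%), 5 with summits at or above the median score (41.9%) and 4 with those at or above the upper quartile (24.3%), which were Dhh, Ptch1, Smo and Sufu. The 20 summits became 12 inside the gene, 13 with a reach of 1000 bp, 34 with 50000 bp, 6 near a boundary, 9 and 6 with the 2 score limits, 8 without shared summits and 12 with the nearest gene. The median highest score of 50.3 became 32.4, 49.5, 62.3, 49.5, 77.5, 82.6, 48.7 and 32.4 in the same order, against 46.2, 48.9, 70.2, 49.3, 71.7, 93.9, 42.1 and 45.8 over all genes with a summit. These alternatives admit fewer or more summits by construction. Of the 7 genes with a listed start, 4 had a summit within 500 bp of it (Smo lost) and 5 within 2500 bp. The share over all genes is given here only for 1000 bp (52.2%), so these counts have no background beside them. Within 1000 bp of a boundary, 67 in place of 80 of the 88 other pathway genes had one, against 48.4% of all genes. No paired analysis was possible because there was 1 ChIP library, and its unknown depth limits what weak scores such as those of Shh, Ihh and Gli1 can show.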
